A study of Homo sapiens with 16 samples.

Results

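The 54 genes described here are the classical, type II and other cadherins, the cadherin-related, desmosomal, flamingo, FAT and Dachsous genes, and the non-clustered protocadherins. They form a list of symbols chosen by gene family, a rule that uses no measured value, and all 54 matched 1 of the 19974 protein-coding gene records of chromosomes 1 to 22 and X. Histone marks were mapped in TKO cells by ChIPmentation, a form of ChIP-seq whose libraries are made by a transposase on the antibody-bound chromatin. H3K27me3 is placed on silent chromatin by Polycomb, and H3K4me3 lies at promoters that are active or poised. TKO is labelled as a plasma cell line of genotype KMS-11 WHSC1(+/-), where KMS-11 is a multiple myeloma line and WHSC1 is another name of the H3K36 methyltransferase gene NSD2. All groups carry that genotype, and the labels name no treatment. The groups are cells with wild type NSD2 (WT), cells with NSD2 D1240A, cells with NSD2 F1295A, and plain TKO cells, for which no expressed form is named. From its title, the series is about NSD2's C-terminus and the transcription of adhesion genes. How the forms were introduced, and whether each line is a clone, is not stated in the labels.

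Cadherins are transmembrane proteins that bind calcium and join cells through their extracellular repeats. Classical and type II cadherins hold adherens junctions together and are tied to the cytoskeleton by catenins, desmosomal cadherins build desmosomes, and flamingo, FAT and Dachsous proteins carry planar polarity and growth signals. Non-clustered protocadherins act mainly in the developing nervous system. Most of these genes are known for epithelial, endothelial, muscle or neural cells, whereas plasma cells adhere to marrow stroma mainly through integrins and immunoglobulin-type molecules.

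Each form had 2 H3K27me3 samples and 1 H3K4me3 sample, and the data are 8 peak lists, 1 per form and mark, so both H3K27me3 samples of a form stand in the same list. No difference between forms therefore had a replicate check, and no test could be run. The read depth is unknown. The H3K27me3 lists held 2083 to 5881 peaks and the H3K4me3 lists 7396 to 8239. Their weakest peaks also differed: the lowest 1% by mean signal ended at 9.45 (TKO) and 10.3 (WT) against 19.1 (D1240A) and 18.4 (F1295A) for H3K27me3, and at 26.2 in TKO against 37.5 to 40.0 in the other forms for H3K4me3. The scale of the signal in each list is not given, so a list with more or weaker peaks and a real difference between forms cannot be told apart. A list also cannot tell a mark in fewer cells from less of the mark in each cell. Of 8 plasma cell markers, 5 to 7 carried H3K4me3 at a gene end, and SLAMF7 had none in any form. None of 15 markers of epithelial, endothelial, mesenchymal or B cells did. H3K27me3 was called at the plasma cell markers SDC1 (every form, with no H3K4me3 in TKO or D1240A) and SLAMF7 (TKO), and at 3 of the other 15, namely COL1A1 (every form), KRT18 (TKO and D1240A) and PAX5 (WT). NSD2 had H3K4me3 at its promoter end, and not at its far end, in all 4 forms, which does not read the form expressed.

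Few of the 54 genes carried either mark. A gene counts as called where a peak overlapped, by at least 1 bp, the 1 kb on each side of an end of its record. For H3K4me3 that held for 6 members by the TKO list (11.1%), 9 by the WT list (16.7%), 9 by D1240A (16.7%) and 10 by F1295A (18.5%), while 39.9%, 43.6%, 41.6% and 44.5% of all protein-coding genes were called in the same lists. H3K27me3 was called at 7, 7, 5 and 6 members (13%, 13%, 9.26% and 11.1%), against 10.0%, 9.57%, 5.36% and 5.79% of all genes. The H3K4me3 share was thus well under that of all genes in every list, and the H3K27me3 share was close to it, a difference of about 2 or 3 genes. At least 1 form had a call at 9 members for H3K27me3 (11.8% of all genes) and at 10 for H3K4me3 (45.4%), and 35 of the 54 (64.8%) had no call in any list, against 45.2% of all genes. Both marks met at the ends of 0 members. Among all genes they met at 1.12%, 1.59%, 0.726% and 0.971% in the TKO, WT, D1240A and F1295A lists, and at 2.12% in at least 1 form, so a count of 0 among 54 genes is close to that background.

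Inside the records, the TKO list had H3K27me3 peaks at 11 members, the WT list at 9, the D1240A list at 6 and the F1295A list at 7, or 20.4%, 16.7%, 11.1% and 13%. The shares of all genes were 12.2%, 10.7%, 6.31% and 6.75%. In records of at least 100 kb, 3 of 24 members (12.5%), CDH4, CDH22 and CDH23, had such a peak in each form, against 11.9%, 7.46%, 4.39% and 4.83% of all genes of that length. H3K4me3 lay inside the records of 6, 9, 9 and 10 members, while 41.6%, 45.6%, 43.6% and 46.4% of all genes had it there. Of the 24 long members 4, 5, 4 and 5 did, against 43.2%, 49.7%, 46.3% and 49.2% of all long genes. The low H3K4me3 share was thus also seen among records of at least 100 kb, within which lengths were not matched.

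**Figure D1:**
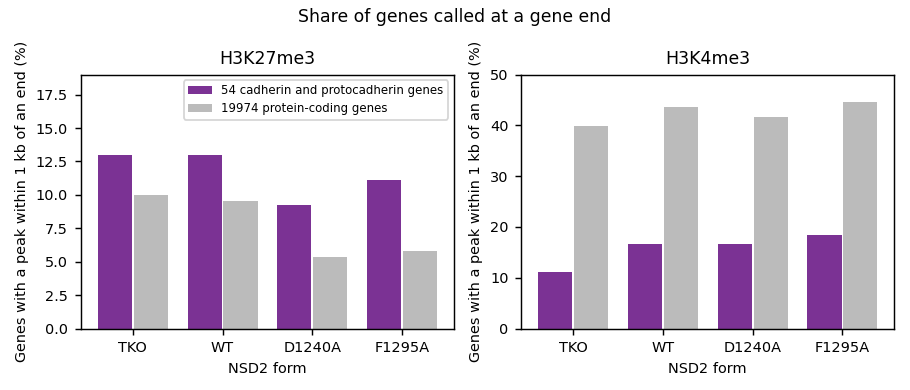
Share of genes (y axis, %) with a peak within 1 kb of a gene end in each NSD2 form (x axis), for the 54 member genes (purple) and all 19974 protein-coding genes (grey), 1 list per bar. The member bars for H3K4me3 lie between 11.1% and 18.5%, below grey bars of 39.9% to 44.5%.

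No base of the record or of the 10 kb on each side was marked in any of the 8 lists at 30 of the 54 members (55.6%), against 35.8% of all genes. Members are long genes, with a median record of 90.4 kb against 24.2 kb. Among records of at least 100 kb, 15 of 24 members (62.5%) and 39.0% of all genes were bare in this sense. The bare genes were 9 of 13 type II cadherins, 6 of 7 desmosomal genes, 4 of 8 delta protocadherins, and 1 to 3 genes of each other subfamily. They include CDH3 (P-cadherin), CDH11 (the cadherin of osteoblasts), CDH17 (liver-intestine cadherin), FAT1, PCDH15, which forms the tip links of hair cells with CDH23, and PCDH19. Of the other 24 members, 19 were called at a gene end in at least 1 list and 5 had marked bases only inside the record or farther than 1 kb from its ends, namely CDH1, CDH13, CDHR3, FAT2 and DCHS1.

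**Figure D2:**
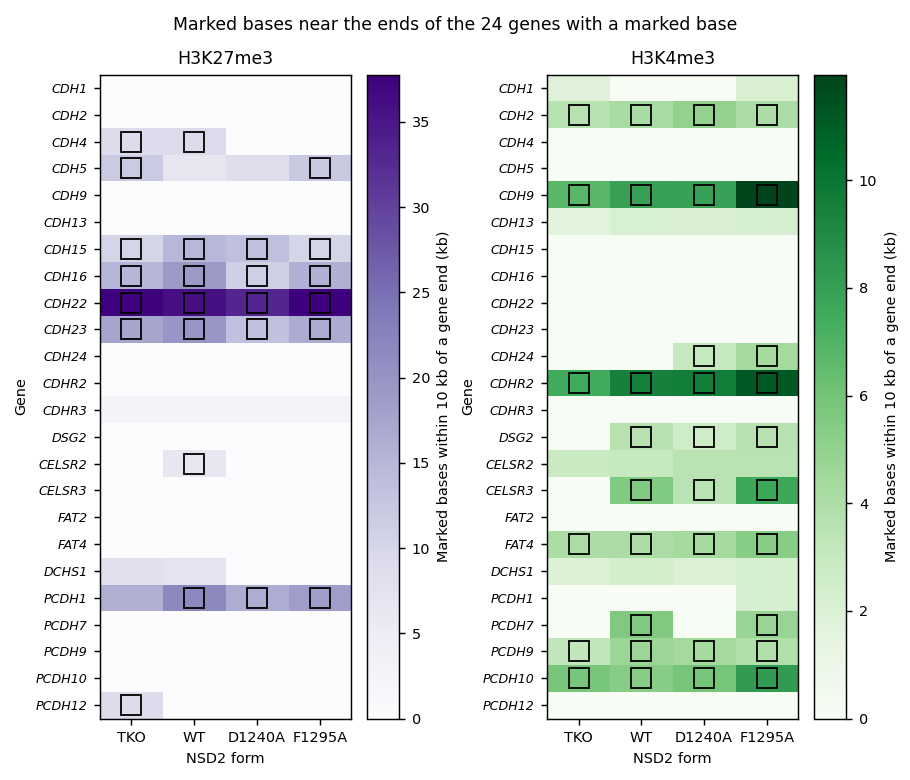
Marked bases within 10 kb of a gene end (colour, kb) for the 24 members with a marked base in any list (rows) in each NSD2 form (columns), with H3K27me3 on the left and H3K4me3 on the right. Squares mark a peak within 1 kb of an end, and no gene has squares in both panels.

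RefSeq's promoter table (GRCh38.p14) holds 35 of the 54 members, and the 250 bases before each start site were read from it. The other 19 are CDH1, CDH3, CDH5, CDH6, CDH11, CDH13, CDH15, CDH16, CDH17, CDH22, CDH24, CDHR5, DSG4, CELSR1, FAT3, FAT4, DCHS1, PCDH10 and PCDH20. Shown here are the sequences of members with H3K4me3 in every form (CDH2) or in some forms (DSG2, CELSR3, PCDH7), with H3K27me3 at the start site in every form (CDH23, PCDH1) or in 1 form (CELSR2, PCDH12), and of FAT1, which had no mark. They are written 5′ to 3′ on the strand of the gene, ending at the base before the start site, with CpG dinucleotides in capitals. In order they lie at chr18:28177131-28177380 (minus strand), chr18:31497927-31498176 (plus strand), chr3:48662887-48663136 (minus strand), chr4:30720119-30720368 (plus strand), chr10:71396670-71396919 (plus strand), chr5:141869628-141869877 (minus strand), chr1:109249289-109249538 (plus strand), chr5:141958203-141958452 (minus strand) and chr4:186726697-186726946 (minus strand).
CDH2: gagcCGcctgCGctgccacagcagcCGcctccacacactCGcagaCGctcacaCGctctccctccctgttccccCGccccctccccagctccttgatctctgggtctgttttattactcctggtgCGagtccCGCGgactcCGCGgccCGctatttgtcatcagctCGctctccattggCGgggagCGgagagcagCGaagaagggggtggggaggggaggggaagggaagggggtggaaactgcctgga
DSG2: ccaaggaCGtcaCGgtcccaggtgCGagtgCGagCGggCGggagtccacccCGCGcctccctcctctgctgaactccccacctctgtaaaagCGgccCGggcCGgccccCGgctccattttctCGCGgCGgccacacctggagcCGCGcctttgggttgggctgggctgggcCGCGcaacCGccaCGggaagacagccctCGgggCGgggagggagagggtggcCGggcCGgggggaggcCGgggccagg
CELSR3: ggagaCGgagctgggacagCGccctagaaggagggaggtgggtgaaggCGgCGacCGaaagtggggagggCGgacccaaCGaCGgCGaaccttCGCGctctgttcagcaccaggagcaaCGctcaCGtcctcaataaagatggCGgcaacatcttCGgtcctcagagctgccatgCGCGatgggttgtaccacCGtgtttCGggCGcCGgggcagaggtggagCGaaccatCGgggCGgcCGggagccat
PCDH7: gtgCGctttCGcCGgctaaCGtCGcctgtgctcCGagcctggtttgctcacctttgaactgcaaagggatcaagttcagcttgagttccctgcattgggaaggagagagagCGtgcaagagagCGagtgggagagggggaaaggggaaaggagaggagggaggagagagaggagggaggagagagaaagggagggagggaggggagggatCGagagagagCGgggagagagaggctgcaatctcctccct
CDH23: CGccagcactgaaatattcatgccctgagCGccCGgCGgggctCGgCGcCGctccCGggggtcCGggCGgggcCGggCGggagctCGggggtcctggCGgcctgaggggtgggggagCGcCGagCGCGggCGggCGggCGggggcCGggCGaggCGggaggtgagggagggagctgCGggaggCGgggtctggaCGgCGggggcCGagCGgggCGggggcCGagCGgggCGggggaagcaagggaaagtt
PCDH1: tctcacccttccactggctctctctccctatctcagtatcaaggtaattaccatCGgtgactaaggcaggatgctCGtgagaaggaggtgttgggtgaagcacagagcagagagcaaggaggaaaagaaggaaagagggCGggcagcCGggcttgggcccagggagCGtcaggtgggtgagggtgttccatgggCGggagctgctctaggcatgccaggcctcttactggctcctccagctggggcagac
CELSR2: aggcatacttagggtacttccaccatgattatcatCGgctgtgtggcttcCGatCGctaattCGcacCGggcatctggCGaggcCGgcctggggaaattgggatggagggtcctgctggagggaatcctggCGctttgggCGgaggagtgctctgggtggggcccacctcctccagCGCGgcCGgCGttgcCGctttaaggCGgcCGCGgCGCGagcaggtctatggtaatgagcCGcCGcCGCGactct
PCDH12: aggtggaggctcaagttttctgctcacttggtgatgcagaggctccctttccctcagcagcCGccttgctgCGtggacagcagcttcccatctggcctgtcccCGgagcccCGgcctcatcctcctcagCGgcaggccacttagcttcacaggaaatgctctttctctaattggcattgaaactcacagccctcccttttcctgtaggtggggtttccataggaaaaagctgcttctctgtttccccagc
FAT1: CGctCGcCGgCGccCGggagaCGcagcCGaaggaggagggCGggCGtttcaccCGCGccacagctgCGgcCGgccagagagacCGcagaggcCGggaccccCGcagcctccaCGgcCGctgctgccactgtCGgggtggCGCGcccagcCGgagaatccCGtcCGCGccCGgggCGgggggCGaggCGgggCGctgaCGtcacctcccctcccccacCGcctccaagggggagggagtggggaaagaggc

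CDH23 had 34 CpG dinucleotides in these 250 bases, FAT1 32, DSG2 26, CELSR3 25, CELSR2 23, CDH2 17, PCDH7 10, PCDH1 6 and PCDH12 5. A start site rich in CpG was therefore seen with H3K4me3, with H3K27me3 and with neither mark. In at least 1 form, 6 of the 35 had H3K4me3 within 1 kb of the start site (46.3% of all genes in the table) and 4 had H3K27me3 (8.14%). By form, 3, 6, 5 and 6 had H3K4me3 there in TKO, WT, D1240A and F1295A (41.0%, 44.8%, 42.7% and 45.4% of all genes), and 3, 3, 2 and 2 had H3K27me3 (6.69%, 6.60%, 3.63% and 3.85%). The 6 members with H3K4me3 within 1 kb of the start site had a median of 18.5 CpG, the 4 with H3K27me3 14.5, and the 25 with neither 7. All 35 had a median of 10 against 17 over the 15812 protein-coding genes in the table. At least 10 CpG stood before the start site of 18 members, and 5 of these 18 (27.8%) had H3K4me3 there in at least 1 form, against 62.6% of all genes with that many. These 18 members had a median of 18.5 CpG and all genes above the threshold 22, so the sets were not matched in CpG content. H3K27me3 lay at the start site of 2 of the 18 (11.1%) and 2 of the 17 others (11.8%), against 6.77% and 11.1% of all genes.

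**Figure D3:**
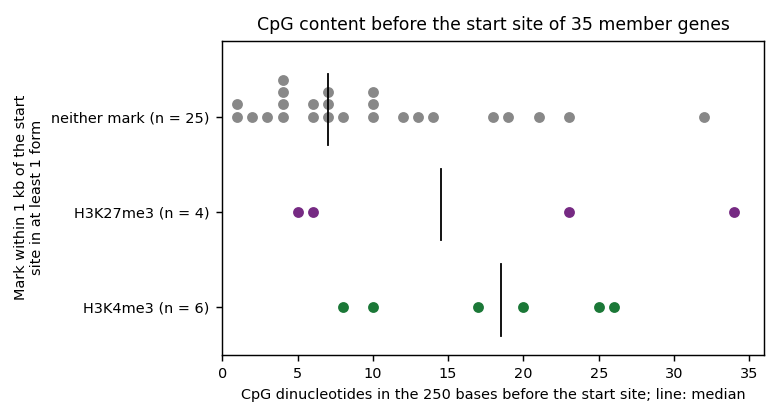
Number of CpG dinucleotides in the 250 bases before the start site (x axis) of the 35 members in the promoter table, 1 point per gene, grouped by the mark within 1 kb of the start site in at least 1 form (y axis), with a line at each median. The medians are 18.5, 14.5 and 7, and FAT1 is the gene with neither mark at 32.

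The motif CAGGTG, bound by the repressors SNAI1, SNAI2, ZEB1 and ZEB2, was searched on both strands of the same 250 bases. It has no CpG, so it overlaps none of the capitals. It was found before 7 of the 35 members (20%), namely CDH4, CDHR2, DSC2, DSG1, DSG2, PCDH1 and PCDH15, against 17.1% of all genes in the table, which is about the same share. DSG2 had 2 matches and the others 1 each. A match describes the letters and is not a measured binding site.

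Of the 5 classical cadherins, CDH2 carried H3K4me3 in every form, CDH15 carried H3K27me3 in every form, CDH1 and CDH4 had H3K27me3 that differed between forms, and CDH3 had no mark. CDH2, which encodes N-cadherin of neural and mesenchymal cells, had a single H3K4me3 peak over its start site on chromosome 18, of 3.63 kb in TKO, 4.17 kb in WT, 4.98 kb in D1240A and 4.06 kb in F1295A. By total signal the peak stood at percentiles 49.7, 73.9, 72.6 and 73.2 of its list in the same order, so it was a middling peak in TKO and in the upper part of the other lists. CDH15, the M-cadherin of muscle (GRCh38 chr16:89171748-89195492), had a single H3K27me3 peak at its lower end in each form, covering 62.7% of the record in WT, and 43.1%, 42.9% and 44.2% of it in TKO, D1240A and F1295A. The WT peak was the widest, at 18.6 kb against 10.6 to 13.9 kb. In WT and D1240A the peak also met an end of a lncRNA record, LINC02138. With only the 2083 strongest peaks of each list, CDH15 lost its call in TKO.

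CDH1 encodes E-cadherin, the defining adhesion molecule of epithelia, and had no peak of either mark within 1 kb of its ends (chr16:68737292-68835537). Inside the record, TKO had H3K27me3 peaks at chr16:68771778-68776494 and chr16:68777684-68783024, and WT had them at chr16:68770048-68776517 and chr16:68777722-68783005. They covered 10.1 kb of CDH1 in TKO and 11.8 kb in WT, and neither mutant list had a peak in the record. By total signal they stood at percentiles 3.01 and 5.70 of the TKO list and 18.8 and 5.49 of the WT list, so all 4 were among the weaker peaks. Their mean signals were 12.3, 12.6, 18.3 and 16.6. An H3K4me3 peak 7444 bp (TKO) and 7242 bp (F1295A) beyond the higher end of CDH1 lay at an end of the neighbouring gene TANGO6.

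CDH4, the R-cadherin of retina and brain (chr20:61252261-61940617), was called for H3K27me3 at its lower end in TKO and WT only, through peaks of 8.83 kb and 9.08 kb. Those peaks stood at percentile 17.3 in TKO and 37.5 in WT, and at 2083 peaks per list neither was kept. Over the whole record, the lower end included, 100.4 kb was covered in TKO, 122.6 kb in WT, 61.5 kb in D1240A and 71.5 kb in F1295A. In D1240A the mark lay in 4 peaks, at chr20:61622426-61632225, chr20:61799330-61818674, chr20:61867535-61889587 and chr20:61893259-61903529, and each of the other lists had a peak over each of these places, as the map of peaks along the records shows. The start site that RefSeq's promoter table gives for CDH4 lies 247.2 kb inside the record and had no peak of either mark within 1 kb.

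Type II cadherins, which are used mainly by neural, endothelial and mesenchymal cells, had marks at CDH5, CDH22, CDH9 and CDH24 and none at the other 9. CDH22, a cadherin of brain, had the most H3K27me3 near its ends of any member: within 10 kb of them 37.5 kb was marked in TKO, 35.7 kb in WT, 33.1 kb in D1240A and 37.8 kb in F1295A. A peak met its higher end in every form, at percentiles 98.1, 97.2, 89.2 and 93.2 of the lists, so the peak was among the strong ones of every list. In WT this peak also met an end of SLC35H1. Inside the record, a peak of 6.37 kb at chr20:46265844-46272211 was in the TKO list only. It had a mean signal of 209.4 and stood at percentile 95.4. CDH5 encodes VE-cadherin of endothelial junctions. H3K27me3 reached its lower end (chr16:66366691) in TKO and F1295A, in peaks of 11.9 kb and 12.1 kb, and stopped 1736 bp short of it in WT and 1735 bp short in D1240A. In TKO and F1295A the peak also met an end of a lncRNA record, LOC105371318. With these distances CDH5 was called in every form with a window of 2.5 kb.

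CDH9 had an H3K4me3 peak of 6.73 kb in TKO, 7.97 kb in WT, 7.90 kb in D1240A and 11.97 kb in F1295A at its lower end (chr5:26880597). The gene is on the minus strand, so this is the far end of the record, and no peak lay within 1 kb of its start site at 27038586. No end of another gene record of any type lay within 1 kb of the peak. It ranked at percentiles 70.6 to 77.6 of its lists and was wider than most, since the median H3K4me3 peak measured 2.70 to 3.70 kb. CDH24 was called for H3K4me3 in D1240A (2.96 kb) and F1295A (4.35 kb) and had no peak within 10 kb in TKO or WT. This peak also meets an end of ACIN1 and of a lncRNA record, LOC105370705, and it stood low in both lists, at percentiles 6.91 and 18.3.

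CDH23 and CDH16 carried H3K27me3 in every form. CDH23 encodes the partner of PCDH15 in hair cell tip links, and most of its record of 419.0 kb on chromosome 10 (71396920 to 71815947) lay in a broad domain. The mark covered 300.9 kb of it in TKO, 334.7 kb in WT, 246.7 kb in D1240A and 298.6 kb in F1295A, or 71.8%, 79.9%, 58.9% and 71.3%. Only 2 or 3 of the 19974 genes had more H3K27me3 bases in their records in any list, as CDH23 ranked 4th, 3rd, 4th and 4th. D1240A had its domain in 11 peaks and the other forms in 7 to 10, and the largest unbroken peak was 196.9 kb in WT, 195.1 kb in F1295A, 129.6 kb in TKO and 73.3 kb in D1240A. Smaller peaks of the domain also met an end of VSIR in WT and F1295A and of C10orf105 in WT. CDH16, a cadherin of kidney (chr16:66908122-66918885), was covered over its whole length in WT and F1295A, over 85.2% in TKO and over 68.5% in D1240A, in a peak that also met an end of RRAD. In WT this peak also met an end of a lncRNA record, LOC107984821.

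**Figure D4:**
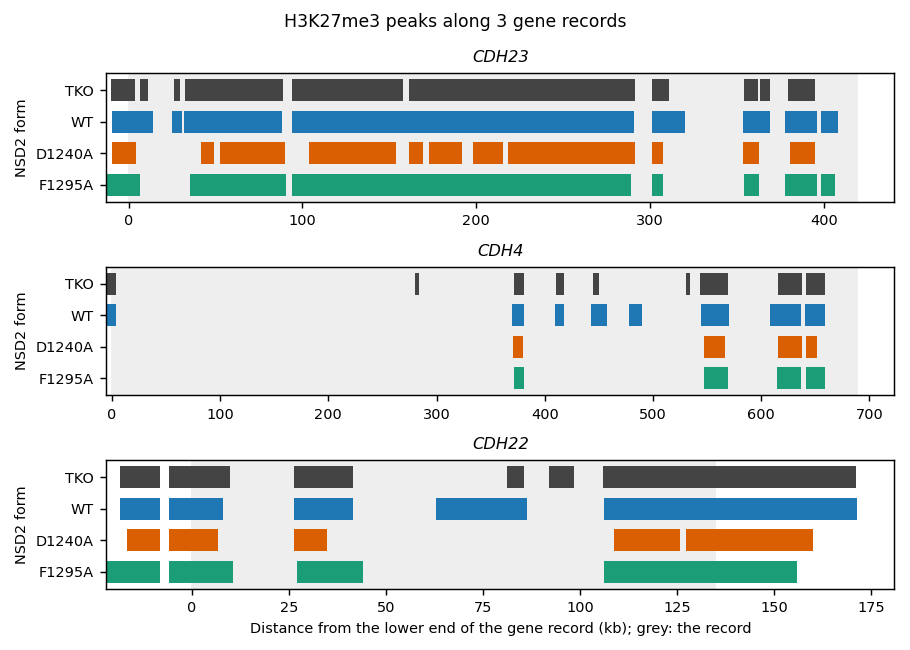
H3K27me3 peaks (bars) along the records of CDH23, CDH4 and CDH22 in each NSD2 form, plotted by distance from the lower end of the record (x axis, kb, grey area for the record). CDH23 was covered over 58.9% to 79.9% in every form, and the CDH4 peak at 0 kb was in TKO and WT only.

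Together CDH23, CDH4 and CDH22 held 84.4% to 90.9% of the H3K27me3 bases in member records. Summed over all 54 records, 552.2 kb was covered in TKO, 603.2 kb in WT, 382.9 kb in D1240A and 473.9 kb in F1295A. Relative to WT this was 0.915, 0.635 and 0.786 for TKO, D1240A and F1295A, while the whole lists covered 1.2, 0.575 and 0.698 times the bases of the WT list. Without CDH23 the member ratios were 0.936, 0.507 and 0.653. The mutants' deficit in these genes was thus about the size of that in their lists, and TKO, whose list covers more bases than WT, had somewhat fewer in these records.

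CDH13, which encodes a cadherin anchored in the membrane by a lipid, had H3K4me3 6530 to 6961 bp past its higher end in all 4 forms, at an end of HSBP1. CDHR3, the receptor of rhinovirus C, had H3K27me3 7204 to 7426 bp past its higher end in all 4. CDHR2, a cadherin of intestinal microvilli, was called for H3K4me3 at its start site in every form, by peaks of 2.79 kb in TKO, 3.92 kb in WT, 3.97 kb in D1240A and 5.11 kb in F1295A. These peaks stood at percentiles 16.0, 30.5, 27.4 and 46.8 of their lists. A stronger H3K4me3 peak lay before the start site, outside the record, in every form, at percentiles 84.6, 89.8, 87.0 and 87.0. The peak at the CDHR2 start site also met an end of RNF44, so the mark cannot be assigned to CDHR2 alone. CDHR1 and CDHR5 had no mark.

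The desmosomal genes form a cluster on chromosome 18, and only DSG2 had a mark in it. DSG2, the most widely expressed desmoglein, was called for H3K4me3 at its start site in WT (3.60 kb), D1240A (2.60 kb) and F1295A (3.63 kb) and had no peak within 10 kb in TKO. The peaks were among the weakest of their lists, at percentiles 7.37, 0.545 and 3.70. At 7396 peaks per list, the length of the TKO list, DSG2 was called in no form. DSC1, DSC2, DSC3, DSG1, DSG3 and DSG4 had no marked base within 10 kb, and no desmosomal gene had H3K27me3.

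Flamingo genes encode 7-pass cadherins of planar polarity. CELSR3 was called for H3K4me3 at its start site in WT, D1240A and F1295A, with peaks of 3.77, 3.54 and 3.85 kb, and had no peak within 10 kb in TKO. These peaks stood at percentiles 0.799, 1.26 and 5.38 of their lists, and each also met an end of the lncRNA record LINC02585. A further H3K4me3 peak met the far end of CELSR3 in WT and F1295A, at an end of SLC26A6 and of the microRNA record MIR6824. With 7396 peaks per list, CELSR3 was called in F1295A alone, through that far end. CELSR2 was called for H3K27me3 in WT only, by a peak at chr1:109245987-109252228 that covers its start site. That peak ranked low among those of WT, at percentile 19.9 with a mean signal of 19.3, and was not among the 2083 strongest. Past its far end CELSR2 had H3K4me3 5789 to 6014 bp away in all 4 forms, at an end of PSRC1. CELSR1 had no mark.

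FAT4 and DCHS1 encode a receptor and ligand pair of tissue growth control. FAT4 carried the strongest H3K4me3 peak of any member, of 4.09 kb in TKO, 4.08 kb in WT, 4.26 kb in D1240A and 5.30 kb in F1295A at its lower end (chr4:125314955). It ranked at percentiles 96.7, 91.7, 89.1 and 93.1, near the top of all 4 lists. DCHS1 had H3K27me3 inside its record in TKO (18.8 kb, 54.4% of the record) and WT (7.15 kb, 20.7%), ending 2241 and 2262 bp from its higher end, and none in the mutants. H3K4me3 lay 7662 to 8090 bp beyond the lower end of DCHS1 in all 4 forms, where ILK, TAF10 and TPP1 have ends. FAT2 had H3K27me3 over 8.43 kb inside its record in TKO and no mark in the other lists. The FAT2 peak also met an end of SLC36A1. FAT1, FAT3 and DCHS2 had no mark.

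Among the delta protocadherins, PCDH9 and PCDH10 carried H3K4me3 in every form, PCDH7 did so in WT and F1295A, and PCDH1 carried H3K27me3. PCDH9 had peaks of 3.21, 4.64, 4.38 and 3.85 kb over its start site in TKO, WT, D1240A and F1295A. PCDH10 had peaks of 5.82, 5.31, 5.87 and 8.20 kb at its lower end (chr4:133149294), where the record PCDH10-DT also ends. The longest peak was thus that of WT at PCDH9 and that of F1295A at PCDH10. PCDH7 had H3K4me3 peaks of 5.59 kb in WT and 4.79 kb in F1295A over its start site on chromosome 4 and no peak within 10 kb in TKO or D1240A. The WT peak stood at percentile 39.7 and the F1295A peak at 11.2, and both also met an end of the uncharacterised record LOC124900844. PCDH7 kept both calls at 7396 peaks per list, the only member with H3K4me3 in WT and not TKO that did so.

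PCDH1, a protocadherin of airway epithelium (chr5:141853090-141878410), was called for H3K27me3 in WT, D1240A and F1295A but not in TKO. The TKO peak, at chr5:141855169-141873579, ended inside the record and still covered 72.7% of it, against 91.7% in WT, 68.2% in D1240A and 89.7% in F1295A. The start site in RefSeq's promoter table lies 8.78 kb inside the record, and it had the mark in all 4 forms, so the difference at PCDH1 depends on whether the end of the record or this start site is read. PCDH12, a protocadherin of endothelium (chr5:141943581-141958202), had H3K27me3 in TKO only, in a peak of 8.89 kb over its start site, at percentile 35.9 among TKO peaks. It was not among the 2083 strongest. H3K4me3 lay nearby in 1 list each, 2578 bp from PCDH1 in F1295A and 9991 bp from PCDH12 in D1240A. PCDH8, PCDH17, PCDH18, PCDH19, PCDH15 and PCDH20 had no mark.

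Set against WT, few members differed, and the numbers over all 54 were near those of all genes. H3K27me3 was called in TKO and not WT at CDH5 and PCDH12 (2 of 54, against 2.17% of all genes) and in WT and not TKO at CELSR2 and PCDH1 (2 of 54, against 1.72%). It was called in WT and not D1240A at CDH4 and CELSR2 (4.34% of all genes), and in WT and not F1295A at the same genes (3.99%), a pair of comparisons that share the WT list. CDH5 was the only member with H3K27me3 in F1295A and not WT (0.210% of all genes), and there was none in D1240A and not WT (0.130%). For H3K4me3, DSG2, CELSR3 and PCDH7 were called in WT and not TKO (4.09%) and none in TKO and not WT (0.325%). Counted over genes called in WT, 3 of 9 members and 817 of 8713 genes lacked the call in TKO, and the member counts are small. PCDH7 was called in WT and not D1240A (2.30%) and no member in WT and not F1295A (0.716%). CDH24 was called in each mutant and not WT (0.285% for D1240A and 1.59% for F1295A).

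H3K27me3 was called in all 4 forms at 4 members (CDH15, CDH16, CDH22 and CDH23, against 4.62% of all genes), and H3K4me3 at 6 (CDH2, CDH9, CDHR2, FAT4, PCDH9 and PCDH10, against 39.0%). In 1 to 3 forms H3K27me3 was called at 5 members (7.19% of all genes) and H3K4me3 at 4 (6.45%). The members called for H3K4me3 in every form had peaks at percentiles from 16 to 96.7, with a median of 71.6 over 24 values. The 4 called in some forms had peaks at percentiles from 0.545 to 39.7, with a median of 7.14 over 10 values. For H3K27me3 the ranges were 43.5 to 98.1 (median 78.0 over 16 values) and 17.3 to 83.6 (median 45.3 over 9 values). For H3K4me3, genes that differed between forms thus mostly had low-ranking peaks. For H3K27me3 they ranged from low to high, with PCDH1 at 63.8 to 83.6. The H3K27me3 peaks that 5 members had in TKO or WT, and in neither mutant at an end or in the record, had mean signals of 11.4 to 19.3 in their own lists. By total signal these peaks stood at percentiles from 3.01 to 62.6, the highest being the TKO peak of DCHS1. The members are CDH1, CELSR2, FAT2, DCHS1 and PCDH12, and the lowest 1% of the mutant lists ended at 19.1 and 18.4 on scales that may not be the same. Members with other H3K27me3 peaks in a mutant list are outside this set. Some of their TKO or WT peaks had no mutant peak at the same place and were stronger. The TKO peak inside CDH22, for example, had a mean signal of 209.4 and stood at percentile 95.4. At equal peak numbers, CDH5, PCDH1, PCDH7 and CDH24 were called in the same forms as reported. The part of list length and peak strength in the differences between forms was not tested at single genes beyond these calls and those at equal peak numbers given above.

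**Figure D5:**
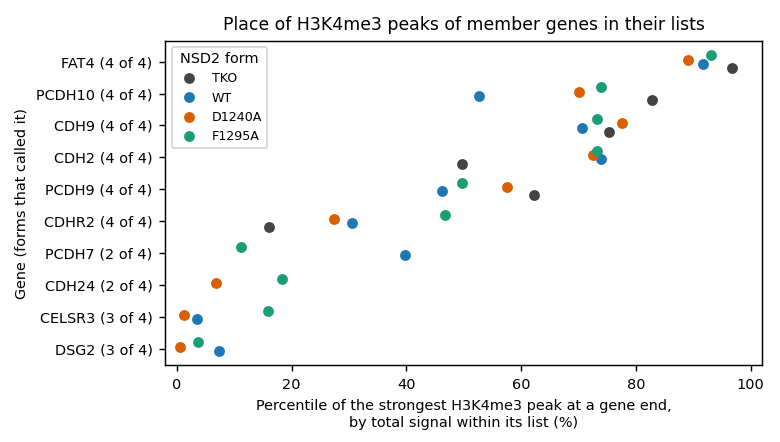
Percentile by total signal, within its list, of the strongest H3K4me3 peak at a gene end (x axis, %) for the 10 members called in any form (y axis, with the number of forms that called each), coloured by NSD2 form. The 6 genes called in all forms lie between 16 and 96.7, and the 4 called in some forms between 0.545 (DSG2) and 39.7 (PCDH7), so the ranges overlap.

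Of 40 partner genes of cadherins, H3K4me3 was called at 16, 19, 17 and 19 in TKO, WT, D1240A and F1295A, or 40%, 47.5%, 42.5% and 47.5%, near the 39.9%, 43.6%, 41.6% and 44.5% of all genes. The mark was called in every form at 16 of them. H3K27me3 was called at 4, 5, 5 and 4, or 10%, 12.5%, 12.5% and 10%, against 10.0%, 9.57%, 5.36% and 5.79% of all genes, a difference of at most 3 genes. Of 16 catenin and plaque genes, which link cadherins to the cytoskeleton, 5 had H3K4me3 in every form, against 39.0% of all genes. They were CTNNA1, CTNNB1, AFDN, PKP2 and PKP4, while the catenin genes CTNNA2, CTNNA3 and CTNND1 were not called. PKP1, a plaque protein of skin desmosomes, was called for H3K27me3 in each form, by 33.7 kb (D1240A) to 38.7 kb (TKO) of marked bases near its ends. Of the repressors of CDH1, ZEB1, TWIST1 and TCF3 had H3K4me3 at their ends in every form. ZEB2 was called in F1295A only, with 2.45 kb in TKO, 2.47 kb in WT, 3.14 kb in D1240A and 4.83 kb in F1295A within 10 kb. SNAI1, SNAI2 and TWIST2 were not called, and no repressor had H3K27me3 within 10 kb.

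Partner genes whose H3K27me3 call differed were the plaque genes EVPL, PKP3 and PPL and the catenin-like gene ARVCF. EVPL was marked in WT only (18.6 kb within 10 kb of its ends). PKP3 was called in WT, D1240A and F1295A, and still had 11.5 kb in TKO against 19.3 to 22.9 kb in those forms. PPL was called in all forms but WT, which had 7.04 kb against 9.48 to 9.56 kb. ARVCF had 6.14 kb in TKO, 8.53 kb in WT and 7.74 kb in D1240A and none in F1295A. For H3K4me3, VCL, the vinculin gene, was called in WT only (2.18 kb), the polarity gene VANGL1 in WT and F1295A (2.14 and 2.33 kb), and the polarity receptor gene FZD6 in every form but TKO (2.20 to 2.55 kb). VANGL2, another polarity gene, had H3K27me3 in every form. The sheddase genes ADAM10 and ADAM17, whose products cleave cadherins, had H3K4me3 in every form. No partner gene had both marks at its ends in 1 form.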

How the data were processed

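The processed files are 8 peak lists from ChIPmentation. The submitters' processing notes name Trimmomatic 0.36, FastQC 0.11.4, Bowtie2 2.4.5, SEACR 1.3 and GRCh38. How peaks were called (mode, control, threshold) is not given in the sources used here. The deposited lists give the total signal (coverage) of each peak, on a scale that is not stated, so signal was used only within a list, to rank peaks, with the mean signal (total over width) set side by side as a description. Each H3K27me3 list stands for 2 samples, per the labels, and how these were combined is unknown. Cells were fixed in 0.8% formaldehyde, per the labels' protocols. The IgG samples were not analysed here.

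Gene records are those of RefSeq, GRCh38.p14. Python 3.11.15, numpy 2.4.6, pandas 2.3.3 and matplotlib 3.10.9 were used. A gene was called where a peak overlapped by at least 1 bp the 1 kb on each side of either end. Marked bases were counted within 10 kb of the ends and inside the record. Start sites and sequences came from RefSeq's promoter table. Calls were tested on simulated data. No replicate values exist, so no p-values are given, and shares describe these lists. Values in every list were to be given for members whose call differed between forms, members with both marks and up to 6 members per mark with the most marked bases; partner genes were to be named where their call differed or where they had both marks, and those with the same call in every form were named after their values were seen. The members were listed by gene family. These rules for naming genes, and the lists, were set with earlier results of these data known. As alternatives, peaks up to 5 kb apart were joined, peaks under 1 kb were dropped, the weaker 50% of each list was dropped, and all lists of a mark were cut to equal peak numbers (2083 and 7396). Others widened the window to 2.5 kb, used whole records or start sites alone, or required 500 bp of cover.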

Additional observations from a re-analysis of the deposited data

How the results depend on the processing

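Of 208 counts under 8 alternatives, 167 lay within 1.5 times of the 26 reported ones. Reported counts of 0 that stayed at 0, such as those for both marks, are among the 167. None moved when peaks within 5 kb were joined, peaks under 1 kb were dropped or 500 bp of cover was required. No peak at a member was under 1 kb wide, so dropping such peaks could not change a count. At equal peak numbers, H3K27me3 was called at 4 members in TKO, at 0 in WT and not either mutant, and at 1 in TKO and not WT; H3K4me3 was called at 1 in WT and not TKO and 2 in F1295A and not WT. With the stronger 50% of each list, H3K27me3 was called at 3 members in D1240A, 3 in F1295A and 2 in all forms, at 1 in TKO and not WT, 1 in WT and not TKO and 0 in F1295A and not WT. H3K4me3 was then called at 4 members in WT, 5 in D1240A, 4 in F1295A and 3 in all forms, at 1 in TKO and not WT, 1 in WT and not TKO, 0 in WT and not D1240A and 0 in F1295A and not WT.

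With start sites alone, over the 35 members in the promoter table, H3K27me3 was called at 3 members in TKO, 3 in WT, 2 in D1240A, 2 in F1295A and 2 in all forms, at 1 in WT and not each of the other forms, 1 in TKO and not WT, and 0 in F1295A and not WT. H3K4me3 was called at 3 in TKO, 5 in D1240A, 6 in F1295A and 3 in all forms, and at 0 in either mutant and not WT. Fewer genes enter this alternative. Over whole records H3K27me3 was called at 11 members in TKO, and at 1 in WT and not TKO. With a window of 2.5 kb it was called at 1 in TKO and not WT, 1 in WT and not TKO and 0 in F1295A and not WT. Both marks met at 0 members under every alternative run. Where no other reason is given, the cause was not tested. No paired analysis was possible because each form has a single H3K27me3 list for both replicates, and no replicate could be left out. The depth of the lists is unknown, so a missing call may be a mark below the threshold of its list.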
